A study of Mus musculus with 6 samples.

Results

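The cGAS-STING pathway lets a cell respond to DNA in its cytosol. cGAS binds the DNA and makes the cyclic dinucleotide cGAMP, STING binds cGAMP, and the kinases TBK1 and IKKε then act on the transcription factor IRF3, which switches on the gene for IFN-β. Other proteins set how much DNA and cGAMP a cell meets. TREX1 and SAMHD1 keep DNA and its building blocks in check, ENPP1 breaks cGAMP down outside the cell, and SLC19A1 and the LRRC8 channels let it cross the plasma membrane. Macrophages are a main source of the STING response in tissues and take up cGAMP that other cells release. Described here are 10 genes of this pathway, which are *Cgas*, *Tmem173* (the gene for STING), *Tbk1*, *Ikbke* (the gene for IKKε), *Trex1*, *Samhd1*, *Enpp1*, *Slc19a1*, *Lrrc8a* and *Lrrc8c*. They were chosen by symbol from the 55453 genes of the count table, and 9 of the 10 had enough reads to be tested.

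RNA-Seq of bone marrow-derived macrophages (BMDM) from C57BL/6 mice was compared between 3 PP2A KO libraries and 3 WT libraries, all with poly(A) selection. The PP2A KO mice are LysMcre PP2Ac fl/fl, with loxP sites around exon 1 of *Ppp2ca*, the gene for the catalytic subunit of the phosphatase PP2A, and with cre expressed from the lysozyme 2 promoter, so that the deletion is limited to myeloid cells. The study's WT mice came from The Jackson Laboratory and its PP2A KO mice from the University of Michigan. WT mice are not described as littermates or as carrying cre or loxP sites. Effects of the deletion, of cre and of the colony therefore cannot be told apart. The labels give neither an age nor a treatment, while the study's text describes its RNA-Seq BMDM of both genotypes as treated with cGAMP. There was no untreated arm, so a level set before cGAMP and a level reached after it cannot be told apart. The BMDM were grown with M-CSF or with medium conditioned by L929 fibroblasts, and which of these was used for the 6 libraries is not given in the sources used here.

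Library totals ran from 35257156 to 47390899 counts. *Ppp2ca* had 47, 33 and 38 reads in the PP2A KO libraries and 10654, 8913 and 8279 in the WT libraries, a log2 fold change of -7.67 (SE 0.10, adjusted p = 3.17e-10). Adjusted p-values come from edgeR's quasi-likelihood fit and were adjusted by the Benjamini-Hochberg method over the 13680 genes tested, and a gene was called higher or lower at an adjusted p under 0.05. By this rule 18.1% of the genes tested were higher in PP2A KO and 19.0% were lower. The calls split 48.7% higher under the scaling used here and 38.4% higher under upper-quartile scaling. Macrophage markers were abundant in every library, with a summed level of 8 genes of 8994 to 9056 CPM (the count scaled for library size) in PP2A KO and 7589 to 8156 CPM in WT. The 2 of these 8 genes called were both higher, *Fcgr1* by 0.70 and *Mertk* by 0.27 on the log2 scale. *Mertk* lost its call with any library but WT replicate 1 left out (adjusted p of 0.0509 to 0.138 from edgeR) and under upper-quartile scaling (0.0671), and 5 of 8 were called higher when the replicate number was a block. Markers of neutrophils, T cells and NK cells were too low to test, with *Ly6g*, *Retnlg* and *Cd8a* at 0 in all 6 libraries. The 3 B cell markers summed to at most 1.34 CPM and the 4 dendritic cell markers to at most 2.38 CPM in any library.

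In PP2A KO, 6 of the 9 members tested were higher and 1 was lower, beside the 18.1% and 19.0% of all genes tested. The genes that rose were the sensor *Cgas*, the receptor gene *Tmem173*, both kinase genes, *Samhd1* and the channel subunit *Lrrc8c*. The channel subunit *Lrrc8a* fell. The hydrolase gene *Enpp1* and the carrier gene *Slc19a1* did not pass the test. The median log2 fold change of the 9 was 0.39, and that of all genes tested was -0.0241. For all 7 members called, the libraries of the genotypes did not overlap in CPM. Every PP2A KO library lay above every WT library for 24.0% of all genes tested and below for 26.8%. At the thresholds the study used for its gene lists, a log2 fold change over 1 and an adjusted p under 0.01, *Samhd1* was the 1 member higher, beside 3.36% of all genes tested, and no member was lower, beside 2.99%. *Samhd1* lay close to this threshold, at 1.03, and fell short of it under upper-quartile scaling (0.97) and without PP2A KO replicate 1 (0.95), WT replicate 2 (0.98) or WT replicate 3 (0.92), which leaves 0 members. The lowest log2 fold change of a member was -0.50.

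**Figure D1:**
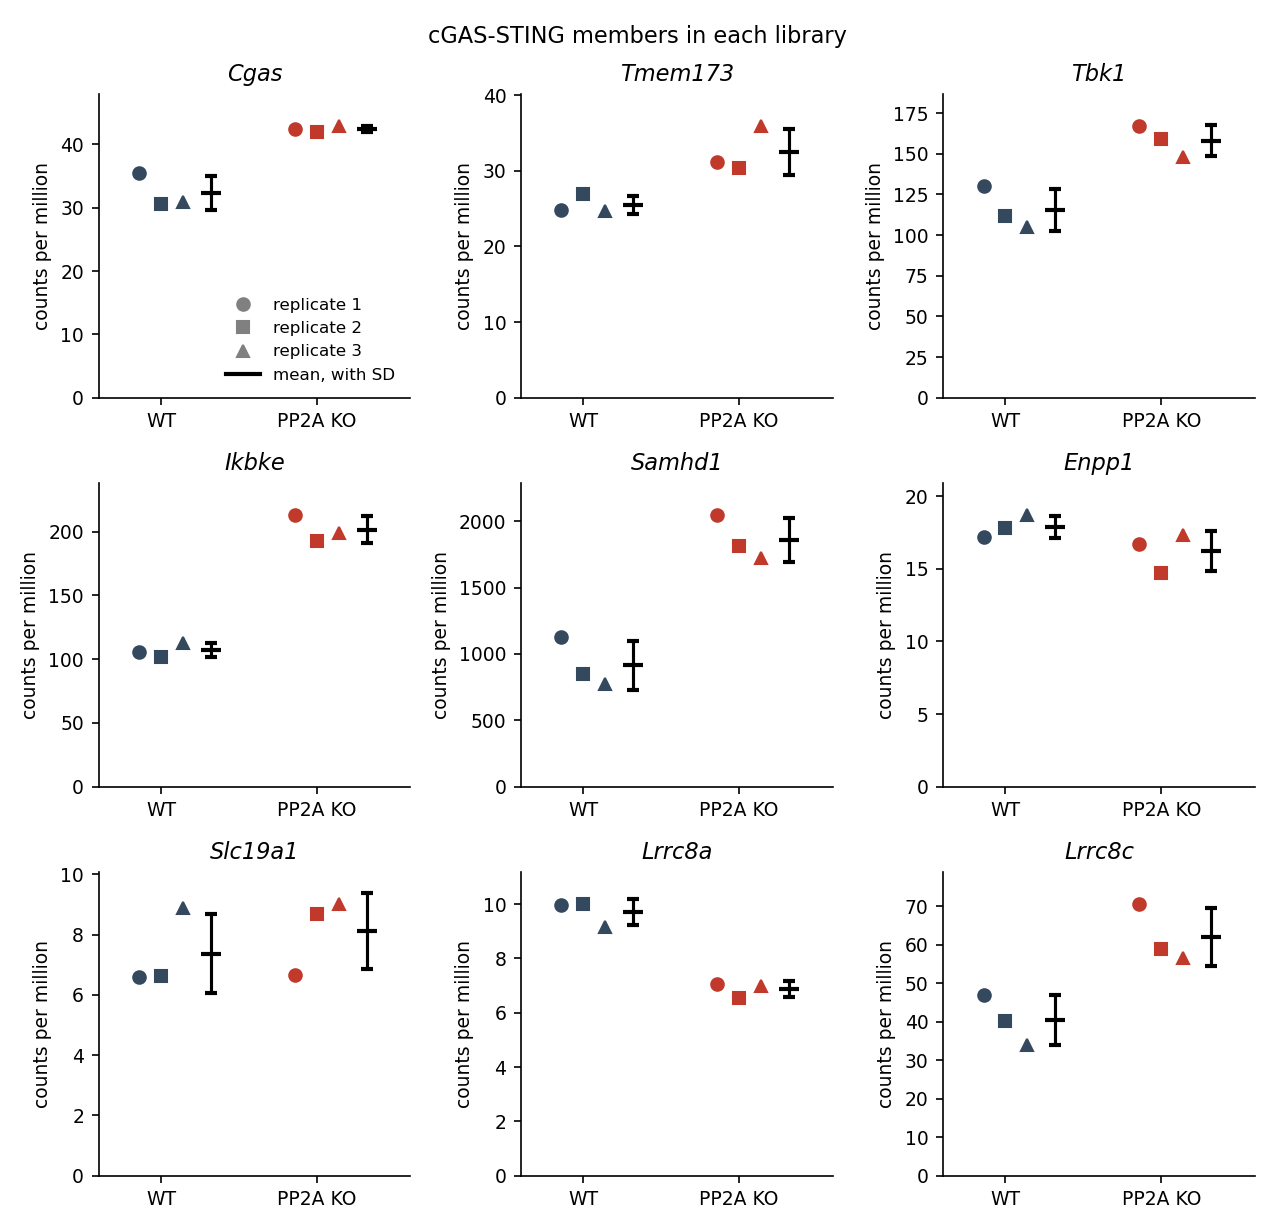
CPM of the 9 members tested in each library, with WT in blue, PP2A KO in red, a marker shape for each replicate number and black bars for the mean ± SD of 3 libraries; the vertical axes start at 0. The genotypes overlap only for *Slc19a1* and *Enpp1*.

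*Cgas* encodes the DNA sensor that makes cGAMP. It had 42.4, 41.9 and 42.9 CPM in PP2A KO and 35.5, 30.6 and 30.9 CPM in WT. The PP2A KO libraries lay within 1 CPM of their mean, 42.4 ± 0.526 (SD, n = 3), and the WT libraries were spread more widely, at 32.4 ± 2.76 (SD, n = 3). All PP2A KO values were above the highest WT value. The log2 fold change was 0.39 (SE 0.07, adjusted p = 0.00244 from edgeR), or 1.31-fold. The gene lies in GRCm38 on the reverse strand of chromosome 9, from 78430526 to 78443237.

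*Tmem173* encodes STING, the receptor for cGAMP in the endoplasmic reticulum. It had 31.1, 30.4 and 35.9 CPM in PP2A KO and 24.8, 26.9 and 24.7 CPM in WT. The third PP2A KO library was the highest of the 6, and the lowest PP2A KO value in CPM was still above the highest WT value. As a share of the library total alone, PP2A KO replicate 2 (1003 of 35257156 reads) lay below WT replicate 2 (1171 of 40000482). The log2 fold change was 0.35 (SE 0.08, adjusted p = 0.00754 from edgeR), or 1.27-fold, the smallest among the 6 members that rose. Without PP2A KO replicate 3 it was 0.27, with an adjusted p of 0.025.

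The sensor and receptor genes were also compared with each other. Within each library, the log2 ratio of *Tmem173* to *Cgas* reads, which does not depend on how libraries are scaled, was -0.45, -0.46 and -0.26 in PP2A KO and -0.52, -0.19 and -0.32 in WT. The libraries of both genotypes were mixed. The difference in means was -0.05, and the exact 2-sided permutation test gave p = 0.7 (adjusted p = 0.7 over the 4 pairs of members compared). With 3 libraries against 3, the smallest p this test can give is 0.1.

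*Tbk1* and *Ikbke* encode the related kinases TBK1 and IKKε, which phosphorylate STING and IRF3. TBK1 is made in most cells, and *Ikbke* is known as a gene that inflammatory signals induce. *Tbk1* had 167, 159 and 148 CPM in PP2A KO and 130, 112 and 105 CPM in WT, and the groups did not overlap. Its log2 fold change was 0.45 (SE 0.09, adjusted p = 0.00346 from edgeR), or 1.37-fold. In both genotypes the library numbered 1 was the highest and the library numbered 3 the lowest.

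*Ikbke* had 213, 193 and 199 CPM in PP2A KO and 106, 102 and 113 CPM in WT. The lowest PP2A KO library was far above the highest WT library, and the spread within each genotype was about 5% of the mean (5.12% in PP2A KO and 4.98% in WT). The log2 fold change was 0.91 (SE 0.07, adjusted p = 5.51e-05 from edgeR), or 1.89-fold.

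Within each library, the log2 ratio of *Ikbke* to *Tbk1* reads was 0.35, 0.28 and 0.42 in PP2A KO and -0.29, -0.14 and 0.10 in WT. All PP2A KO ratios were above all WT ratios, and the difference in means was 0.46. The exact 2-sided permutation test gave p = 0.1, the smallest it can give here, and an adjusted p of 0.2 over the 4 pairs, so that the difference did not pass the threshold.

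**Figure D2:**
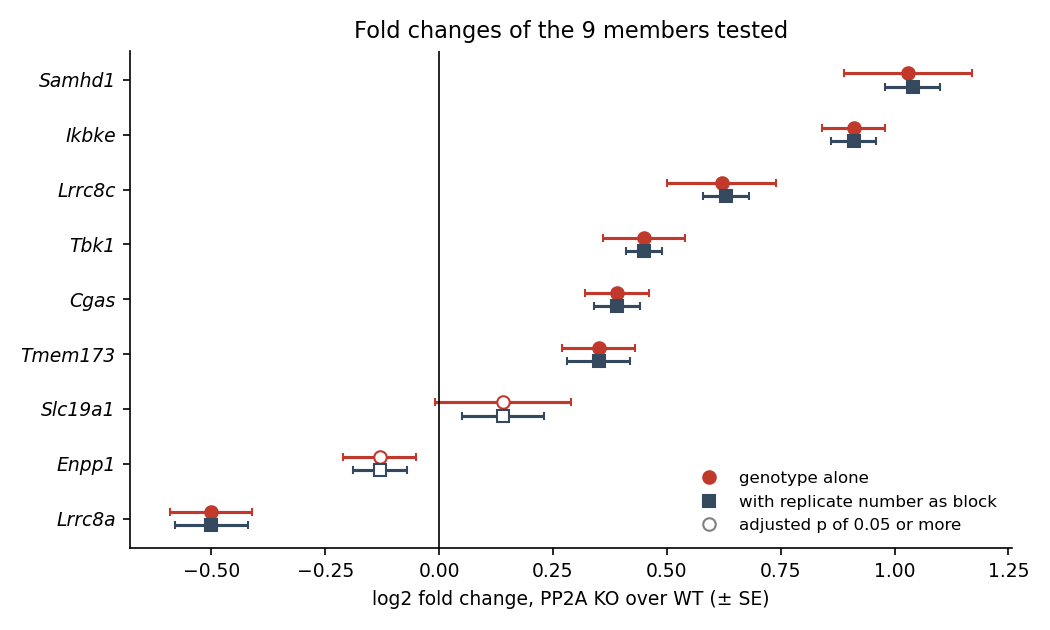
Log2 fold change (PP2A KO over WT, ± SE) of the 9 members tested, from edgeR's fit with genotype alone (red circles) and with a block for the replicate number (blue squares); open symbols have an adjusted p of 0.05 or more. *Samhd1* (1.03) and *Ikbke* (0.91) lie highest, *Lrrc8a* (-0.50) lies lowest, and both fits place every member on the same side of the threshold.

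*Samhd1* encodes a hydrolase that removes deoxynucleoside triphosphates and is known to be induced by IFN in many cells. It was the most abundant member by reads, with 2046, 1813 and 1723 CPM in PP2A KO and 1124, 846 and 770 CPM in WT. WT replicate 1 stood above the other WT libraries, and the WT values had the widest relative spread of any member tested (20.4% of the mean). No WT library reached the lowest PP2A KO library. The log2 fold change was 1.03 (SE 0.14, adjusted p = 0.000502 from edgeR), or 2.04-fold. Between libraries with the same number it was 0.86, 1.10 and 1.16.

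*Trex1* encodes the main exonuclease for DNA in the cytosol, and it had 0 reads in all 6 libraries. This 0 cannot be read as a lack of *Trex1* RNA. In GENCODE M21, on the reverse strand of chromosome 9 from 109057933 to 109059734, all 1147 exon bases of *Trex1* also belong to exons of *Atrip*, a gene of the DNA damage response on the same strand. Of 121 protein-coding genes with no exon base of their own on their strand, 121 had 0 counts in every library, against 27.7% of the 20059 whose exon bases are all their own. *Atrip* itself had 520, 360 and 461 reads in PP2A KO and 627, 562 and 472 in WT, and how many of these came from *Trex1* cannot be told from the table. No fold change or ratio to *Cgas* was computed for *Trex1*.

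Promoters were read for 9 of the 10 members from RefSeq windows of GRCm38.p6, over the 250 bases before the RefSeq start of the gene. Letters known from IFN-responsive promoters were searched on both strands. The core of the IFN-stimulated response element, GAAANNGAAA, was in none of the members' windows and in 2.97% of all 32817 windows. The STAT-binding GAS element, TTCNNNGAA, was in 7.01% of all windows and in 1 member's, that of *Samhd1*, from 235 to 227 bases before the RefSeq start. The search pattern is its own reverse complement, so the matches on both strands are 1 site. The RefSeq start of *Samhd1* lies inside the gene as GENCODE M21 places it. Of the 250 bases, 81 lie outside annotated exons, and these hold the site, which is nearer to the GENCODE start. A match is a description of the letters and does not show that a factor binds. The stretches of these windows outside annotated exons are shown for *Samhd1* and *Ikbke*, the members that rose most, and for the sensor *Cgas*, with the GAS letters in capitals. All are 5′ to 3′ on the reverse strand, at chr2:157135266-157135346, chr1:131279607-131279813 and chr9:78443238-78443487, and neither *Ikbke* nor *Cgas* holds either motif.
Samhd1: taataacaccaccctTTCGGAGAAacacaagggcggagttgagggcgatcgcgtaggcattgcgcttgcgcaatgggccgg
Ikbke: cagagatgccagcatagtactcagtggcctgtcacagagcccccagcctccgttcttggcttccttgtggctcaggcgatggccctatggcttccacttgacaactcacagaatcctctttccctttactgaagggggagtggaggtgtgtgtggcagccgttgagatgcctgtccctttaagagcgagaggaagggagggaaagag
Cgas: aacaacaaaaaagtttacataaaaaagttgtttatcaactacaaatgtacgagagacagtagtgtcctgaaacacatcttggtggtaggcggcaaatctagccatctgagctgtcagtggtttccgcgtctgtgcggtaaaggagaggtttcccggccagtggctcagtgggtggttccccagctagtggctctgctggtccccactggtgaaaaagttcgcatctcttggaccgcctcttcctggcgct

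*Enpp1* encodes the ectoenzyme that hydrolyses extracellular cGAMP. It had 16.7, 14.7 and 17.3 CPM in PP2A KO and 17.2, 17.8 and 18.7 CPM in WT, so that PP2A KO replicate 3 lay just above WT replicate 1. The log2 fold change was -0.13 (SE 0.08, adjusted p = 0.223 from edgeR). *Slc19a1* encodes the reduced folate carrier, which also imports cyclic dinucleotides. It had 6.67, 8.69 and 9.01 CPM in PP2A KO and 6.58, 6.62 and 8.87 CPM in WT, and the genotypes were mixed. Its log2 fold change was 0.14 (SE 0.15, adjusted p = 0.50 from edgeR). These p-values do not show that either gene was unaltered.

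*Lrrc8a* and *Lrrc8c* encode subunits of the volume-regulated anion channels, in which LRRC8A is needed in every channel and a partner such as LRRC8C sets what passes. Channels of this pair are known to carry cGAMP. *Lrrc8c* had 70.6, 58.9 and 56.7 CPM in PP2A KO and 47, 40.2 and 34.0 CPM in WT. The groups did not overlap, and the log2 fold change was 0.62 (SE 0.12, adjusted p = 0.00364 from edgeR), or 1.54-fold. *Lrrc8a* had 300, 216 and 292 reads in PP2A KO and 495, 437 and 384 in WT, or 6.87 ± 0.286 CPM and 9.72 ± 0.490 CPM (SD, n = 3). Here every PP2A KO library was below every WT library in CPM, and the log2 fold change was -0.50 (SE 0.09, adjusted p = 0.00185 from edgeR), so that WT was 1.41-fold higher.

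The subunit genes therefore moved in opposite directions in the same libraries. The log2 ratio of *Lrrc8c* to *Lrrc8a* reads was 3.32, 3.17 and 3.02 in PP2A KO and 2.24, 2.00 and 1.89 in WT, a difference of 1.13 and the widest of the 4 pairs. The groups did not overlap (exact 2-sided permutation p = 0.1, adjusted p = 0.2). The ratio of *Slc19a1* to *Lrrc8a* reads was -0.08, 0.41 and 0.36 in PP2A KO and -0.60, -0.60 and -0.05 in WT. It differed by 0.64 in the means (exact 2-sided permutation p = 0.2, adjusted p = 0.267), and PP2A KO replicate 1 lay below WT replicate 3. Between libraries with the same number, this ratio was higher in PP2A KO by 0.51, 1.01 and 0.41, that of *Lrrc8c* to *Lrrc8a* by 1.08, 1.17 and 1.13, and that of *Ikbke* to *Tbk1* by 0.64, 0.42 and 0.32. The *Tmem173* to *Cgas* ratio differed by 0.07, -0.28 and 0.07. With 3 pairs, an exact test over sign flips cannot give a p under 0.25, and it gave 0.25 for the first 3 ratios and 1 for the last.

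**Figure D3:**
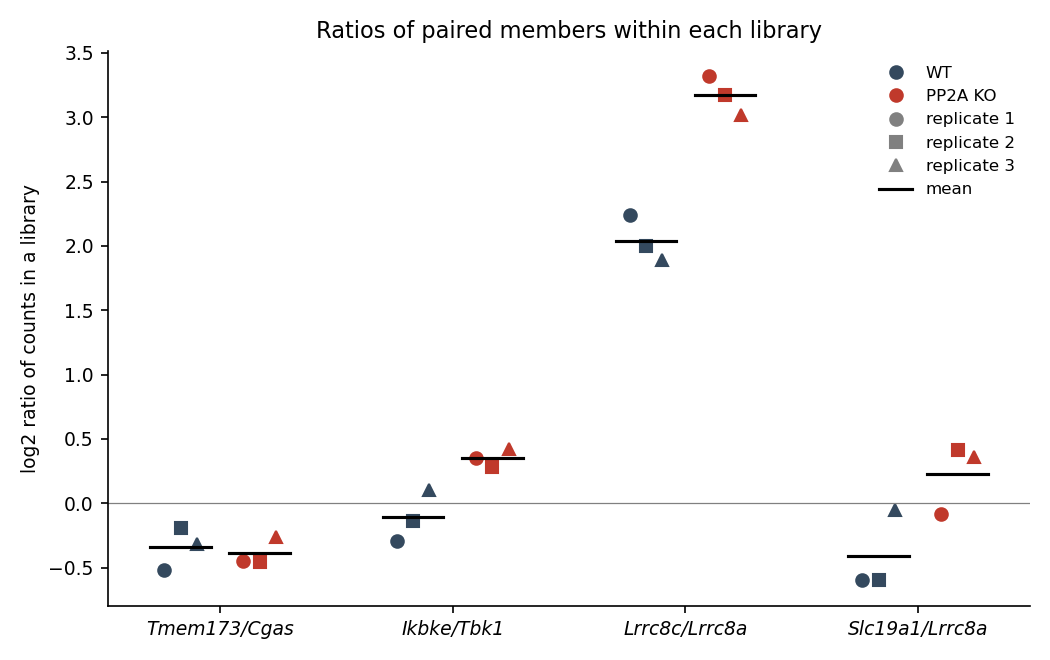
Log2 ratio of reads between paired members within each library, with WT in blue, PP2A KO in red, a marker shape for each replicate number and black lines for the means of 3 libraries. The *Lrrc8c*/*Lrrc8a* and *Ikbke*/*Tbk1* ratios do not overlap between genotypes, and the *Tmem173*/*Cgas* ratios are mixed.

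The level of *Lrrc8a* carries a limit. Of its 4308 exon bases, 66.2% are shared with *Gm28035*, a protein-coding model on the same strand that had 0 counts in every library, which leaves 1455 bases of its own. The other subunit genes are *Lrrc8b*, with a log2 fold change of 0.03 (SE 0.09, adjusted p = 0.845 from edgeR), *Lrrc8d*, which fell by 0.22 (SE 0.06, adjusted p = 0.0246) and lost its call without PP2A KO replicate 2 (0.0859), PP2A KO replicate 3 (0.0794) or WT replicate 2 (0.103), and *Lrrc8e*, which was too low to test. Per kilobase of exon bases of their own, *Lrrc8c* made up 32.4%, 29.9% and 29.5% of the 5 *Lrrc8* genes' summed level in PP2A KO and 21.5%, 19.4% and 17.9% in WT. *Lrrc8a* made up 17.1%, 17.4% and 19.1% in PP2A KO and 23.9%, 25.5% and 25.4% in WT. With all exon bases as the length, the mean share of *Lrrc8a* was only 6.86% in PP2A KO and 10.1% in WT, while that of *Lrrc8c* was 34.7% and 23.5%. The size of the *Lrrc8a* share depends on the length used, and with both lengths every PP2A KO library was below every WT library.

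As RPKM, the CPM per kilobase of exon, the members spanned a wide range. *Samhd1* was the most abundant, at 99.8 ± 20.3 RPKM (SD, n = 3) in WT and 203 ± 18.3 in PP2A KO. It was followed in both genotypes by *Tbk1* (29.6 ± 3.23 in WT and 40.4 ± 2.44 in PP2A KO), *Ikbke* (11.9 ± 0.591 and 22.3 ± 1.14), *Tmem173* (9.30 ± 0.453 and 11.8 ± 1.10), *Cgas* (7.85 ± 0.668 and 10.3 ± 0.127) and *Lrrc8c* (5.28 ± 0.852 and 8.11 ± 0.969). None of these neighbours overlapped in their libraries within a genotype. With all exon bases as the length, *Lrrc8a*, *Enpp1* and *Slc19a1* came last. In WT, *Lrrc8a* (2.26 ± 0.114) lay above *Enpp1* (1.74 ± 0.0740) in all libraries, and *Enpp1* overlapped *Slc19a1* (1.58 ± 0.282). In PP2A KO these 3 genes overlapped, with *Slc19a1* at 1.75 ± 0.273, *Lrrc8a* at 1.59 ± 0.0664 and *Enpp1* at 1.59 ± 0.133. The place of *Lrrc8a* depends on the length. Over the 1455 exon bases of its own it had 6.68 ± 0.337 RPKM in WT, above *Lrrc8c* in all libraries. In PP2A KO it then had 4.72 ± 0.197, below *Lrrc8c* but above *Enpp1* and *Slc19a1*.

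**Figure D4:**
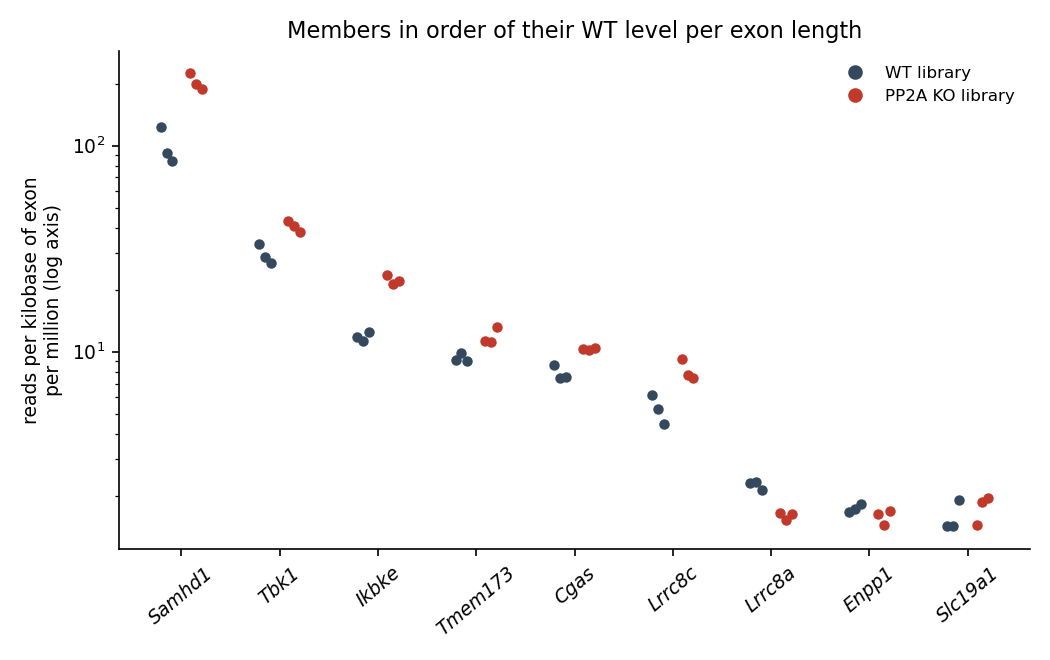
RPKM (log axis) of the 9 members tested, in order of their WT mean, with 1 point for each WT library (blue) and PP2A KO library (red). *Samhd1* lies highest in both genotypes, and *Lrrc8a*, *Enpp1* and *Slc19a1* lie lowest. The length is all exon bases, most of which *Lrrc8a* shares with another gene model.

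*Lrrc8a* was lower in PP2A KO, as were fibroblast markers and 19.0% of all genes tested. All 5 of 5 fibroblast markers were lower in PP2A KO, from -2.10 for *Col1a1*, -2.05 for *Col1a2* and -1.95 for *Col3a1*, all collagen genes, to -1.33 for *Pdgfra* and -1.25 for *Dcn*. *Pdgfra* lost its call without PP2A KO replicate 2 (adjusted p = 0.0576 from edgeR) or WT replicate 2 (0.0571). None was at 0. Their summed level was 35, 28.5 and 23.3 CPM in PP2A KO and 111, 121 and 76.5 CPM in WT. Of 3 endothelial markers, 2 were called higher, as were the members that rose and 18.1% of all genes tested. *Cdh5* was higher by 1.40 and *Kdr* by 1.09. The summed level of the endothelial markers was 201 to 250 CPM in PP2A KO and 86.8 to 138 CPM in WT. The third, *Pecam1*, had a log2 fold change of 0.34 (adjusted p = 0.0643 from edgeR) and was called when the replicate number was a block (adjusted p = 0.0265). *Kdr* made up most of the endothelial sum, at 230, 183 and 184 CPM in PP2A KO and 125, 76.5 and 78.2 CPM in WT. *Clec9a*, a dendritic cell marker near the limit of detection, was higher by 1.25 (adjusted p = 0.0284) and lost its call without PP2A KO replicate 1 (0.121), WT replicate 2 (0.0807) or WT replicate 3 (0.0617). The part of these markers in the members' changes was not tested. In bulk RNA, fewer cells of a type and less RNA per cell cannot be told apart.

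The wider pathway was read from 87 further genes in 5 groups by role, of which 80 were tested. Of these 17 were higher and 17 were lower, or 21.2% each way, near the 18.1% and 19.0% of all genes tested. Their median log2 fold change was 0.00. The counts of each role follow.

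The group of kinase adaptors and IRF3 output had 11 of 19 genes higher and 1 lower, and their median change was 0.51 on the log2 scale. Among all genes tested, 18.1% were higher and 19.0% were lower. The list was written with earlier results of these data known. The study had also reported higher *Ifnb1*, *Cxcl10* and *Isg15* by RT-PCR in cGAMP-treated PP2A KO BMDM. The count is therefore a description of the listed genes and no test of the group. The group is mixed. Of the 11, the kinase adaptors are *Tank*, *Azi2* and *Optn*. The rest are *Irf7*, *Irf5*, *Ifnb1*, *Cxcl10*, *Isg15*, *Ifit1* and the NF-κB subunit genes *Nfkb1* (higher by 0.75) and *Rela* (0.48). The NF-κB kinase complex genes *Chuk*, *Ikbkb* and *Ikbkg*, also in the group, were not called. When the replicate number was a block, 13 were higher and 2 lower. *Irf7*, the IFN-inducible relative of IRF3, had 1852, 1794 and 1587 CPM in PP2A KO and 734, 583 and 499 CPM in WT, a log2 fold change of 1.53 (SE 0.13, adjusted p = 9.07e-05 from edgeR). *Cxcl10*, a chemokine gene induced by IFN, was higher by 1.36 (SE 0.12). *Ifnb1*, the gene for IFN-β, had 19.2, 13.1 and 15.4 CPM in PP2A KO and 8.86, 5.91 and 4.32 CPM in WT, a log2 fold change of 1.32 (SE 0.23, adjusted p = 0.002). No library of these 3 genes overlapped between genotypes.

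*Irf3* itself had 32.7, 35.8 and 34.7 CPM in PP2A KO and 32.6, 35.9 and 38.4 CPM in WT. The genotypes were mixed, and its log2 fold change was -0.05 (SE 0.07, adjusted p = 0.636 from edgeR). Whether its change differed from those of *Irf7* and *Ifnb1* was not tested.

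The adaptors named next were chosen after their values were seen. *Tank* and *Azi2*, which encode scaffolds that bind TBK1 and IKKε, were higher by 1.10 (SE 0.13) and 0.75 (SE 0.11), and *Optn*, another TBK1-binding adaptor, by 0.51 (SE 0.08). The third scaffold gene of this kind, *Tbkbp1*, had a log2 fold change of 0.08 (SE 0.07, adjusted p = 0.438 from edgeR). *Mavs*, the adaptor of the RNA-sensing pathway, was the 1 gene of the group that fell, by 0.45 (SE 0.07). *Traf3*, a ubiquitin ligase upstream of TBK1, had a log2 fold change of 0.00 (SE 0.07, adjusted p = 0.967).

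Genes of STING trafficking and turnover had 3 of 26 higher and 6 lower, and a median of -0.03. *Usp18*, an IFN-induced protease that limits the IFN response, was higher by 1.27 (SE 0.15, adjusted p = 0.000281 from edgeR). *Trim30a*, an IFN-induced ubiquitin ligase, was higher by 0.94 (SE 0.14). The third, *Mul1*, a mitochondrial ubiquitin ligase gene named after its values were seen, was higher by 0.31 (SE 0.08) and lost its call without PP2A KO replicate 2 (adjusted p = 0.0509 from edgeR). *Tollip*, a sorting adaptor that stabilises STING, had 83.6, 88.0 and 87.5 CPM in PP2A KO and 113, 113 and 110 CPM in WT, and it fell by 0.37 (SE 0.06, adjusted p = 0.000998). *Surf4*, *Sec24c*, *Sar1a* and *Yipf5*, which belong to transport between the endoplasmic reticulum and the Golgi and were picked after their values were seen, had log2 fold changes of 0.03 to 0.07, with none called.

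**Figure D5:**
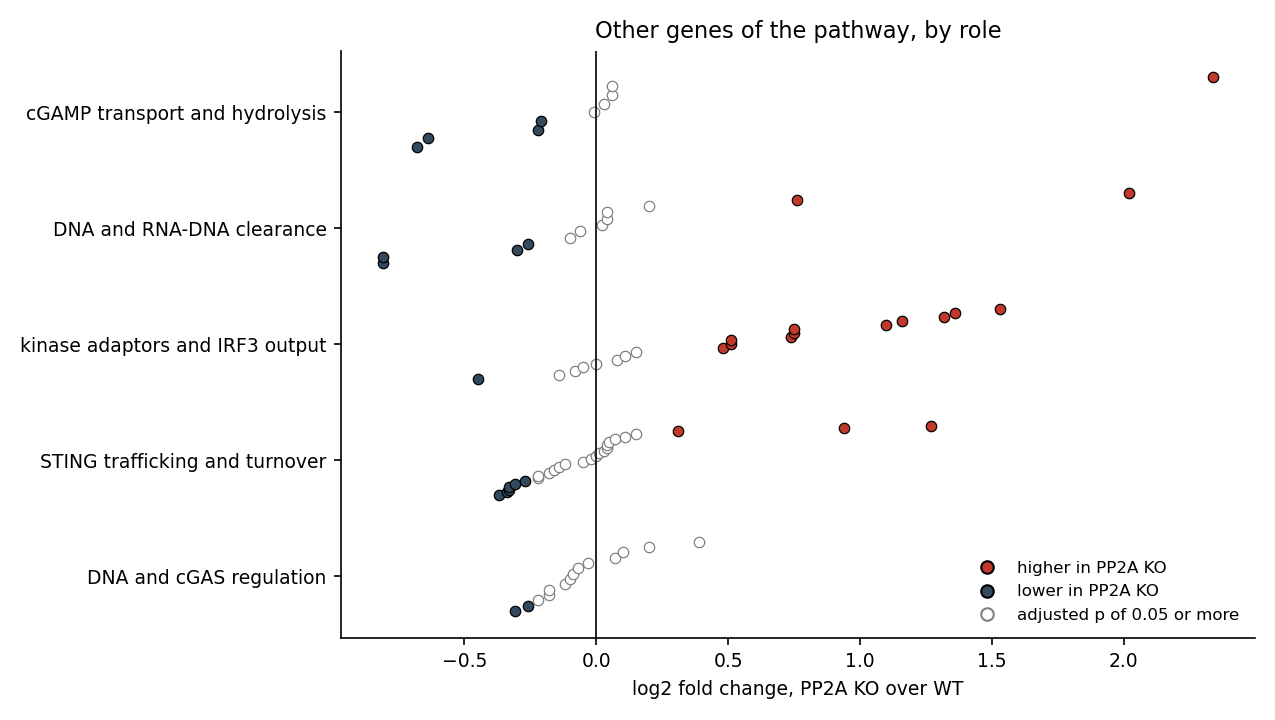
Log2 fold change (PP2A KO over WT) of the 80 other pathway genes tested, 1 point per gene in rows by role, filled red where higher, filled blue where lower and open where the adjusted p was 0.05 or more. The group of kinase adaptors and IRF3 output, which includes NF-κB genes, holds 11 of the 17 genes that were higher. The lists were written with earlier results of these data known.

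Genes that regulate DNA sensing by cGAS had 0 of 14 higher and 2 lower. *Ttll4*, which encodes a glutamylase that acts on cGAS, fell by 0.31 (SE 0.10). *Hmgb2*, which encodes a DNA-bending protein, fell by 0.26 (SE 0.06). When the replicate number was a block, 3 of the 14 were higher and 4 lower. *Ttll4* lost its call without PP2A KO replicate 2 (adjusted p = 0.113 from edgeR), PP2A KO replicate 3 (0.0548), WT replicate 1 (0.0596) or WT replicate 3 (0.0879). At an unadjusted p under 0.05, 2 of the 14 were higher, and DESeq2 and limma-voom called 0 of the 14 higher. *Zcchc3*, a co-sensor of DNA, had a log2 fold change of 0.39 (SE 0.14) and an adjusted p of 0.0562, which became 0.0219 with the block.

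Genes that clear DNA and RNA-DNA hybrids had 2 of 12 higher and 4 lower. *Dnase1l3*, which encodes a secreted DNase, had 19.6, 17.2 and 10.8 CPM in PP2A KO and 5.62, 4.28 and 1.72 CPM in WT, a log2 fold change of 2.02 (SE 0.34, adjusted p = 0.00175 from edgeR). *Lsm11*, a histone mRNA processing gene, fell by 0.81 (SE 0.14). Named after their values were seen, further called genes were the RNA-editing gene *Adar*, higher by 0.76 (SE 0.11), and the DNA-binding gene *Rpa1* and the lysosomal DNase gene *Dnase2a*, which fell by 0.26 (SE 0.05) and 0.30 (SE 0.08). *Dnase2a* lost its call without PP2A KO replicate 1 (adjusted p = 0.0778 from edgeR), WT replicate 2 (0.0908) or WT replicate 3 (0.0521).

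Other genes of cGAMP transport and hydrolysis had 1 of 9 higher and 4 lower. *Gjb2* and *Gja1* encode connexins, whose gap junctions pass cGAMP between cells. *Gjb2* was close to the limit of detection, at 1.18, 1.33 and 0.455 CPM in PP2A KO and 0.322, 0.230 and 0 CPM in WT, with a log2 fold change of 2.34 (SE 0.65, adjusted p = 0.0189 from edgeR). Its call was lost under DESeq2 (adjusted p = 0.0975) and without PP2A KO replicate 1 (0.0687), PP2A KO replicate 2 (0.0681) or WT replicate 2 (0.052). *Gja1* had 3.89, 4.82 and 3.35 CPM in PP2A KO and 6.80, 7.22 and 5.18 CPM in WT, and it fell by 0.68 (SE 0.17, adjusted p = 0.0107). Connexin 43, its product, is abundant in fibroblasts, whose markers fell in the same libraries. Any link between these falls was not tested, and 19.0% of all genes tested were lower. *Slc46a3*, a lysosomal transporter gene of the SLC46 family, had 15.4, 16.5 and 17.3 CPM in PP2A KO and 23.9, 26.7 and 26.1 CPM in WT, and it fell by 0.64 (SE 0.07, adjusted p = 0.000276). The others that fell were *Lrrc8d* and, named after its values were seen, *P2rx7*, an ATP-gated channel gene, by 0.21 (SE 0.06, adjusted p = 0.028). *P2rx7* lost its call under RLE scaling (0.0559) and DESeq2 (0.0654) and without PP2A KO replicate 2 (0.128), PP2A KO replicate 3 (0.0987) or WT replicate 2 (0.0825).

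Among 8033 other genes with a mean of at least 10 CPM, the profile over the 6 libraries that lay closest to *Cgas* was that of *Atad1*, at a root mean square difference of 0.0262 on the log2 scale, and *Evi2a* (0.0297) was also among the nearest. The median over all genes was 0.30. Closest to *Tmem173* were *Zfp213* (0.0472), *Fcer1g* (0.06) and *Znhit1* (0.0683), with a median of 0.28 over all genes. *Atad1* and *Evi2a* had log2 fold changes of 0.38 and 0.36, and the 3 nearest to *Tmem173* of 0.33 to 0.37. The 6 libraries fall into 2 genotypes, so a small difference shows mainly a like change between them.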

How the data were processed

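Poly(A) RNA of 6 BMDM cultures was sequenced in paired ends with a directional kit. The authors deposited whole-number counts of reads per gene, without normalization. The submitters' processing notes name fastp 0.20.0, STAR 2.7.1a, HTSeq 0.11.2, kallisto 0.46.1 and edgeR 3.34.0, with the builds mm10 and GRCm38, and the strand setting is not given in the sources used here. A counter that drops reads shared by overlapping genes would leave such genes with few reads.

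Counts were tested with edgeR 4.0.16 in R 4.3.3. Genes were kept by filterByExpr (minimum count 10, minimum total 15), scaled by TMM, and compared between genotypes by glmQLFit and glmQLFTest without a covariate. CPM use the TMM factors, which were 0.91, 0.937 and 0.937 in PP2A KO and 1.05, 1.09 and 1.1 in WT. Compared with scaling by library totals alone, these factors raise the PP2A KO level of every gene relative to WT. The submitters call the libraries replicates and do not say whether they came from separate mice, so the p-values measure the spread between these libraries. Ratios of members used log2 counts with 0.5 added to each. Lengths and positions came from GENCODE M21 and promoters from RefSeq (GRCm38.p6). A floor of 3 counts was 0.0604 to 0.0909 CPM and covers counting error only.

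Both genotypes carry the numbers 1 to 3 in the labels. Deviations from the group means correlated between same-numbered libraries at 0.249, 0.123 and 0.31, all over 0.1, so the numbers were taken to pair the libraries, and a fit with the number as a block was an alternative. What the numbers share is not given in the sources used here. The other alternatives were scaling by RLE or by the upper quartile, testing without the filter or with at least 10 counts in each library, DESeq2 1.42.0, limma-voom (limma 3.58.1), each library left out in turn, a pseudocount of 0 and other gene lengths.

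The members, gene lists and tests were chosen with earlier results of these data known. The genes named were the 10 members, *Ppp2ca*, the markers, *Irf3*, *Irf7*, *Ifnb1*, the 3 genes of each role group with the largest change at an adjusted p under 0.05, and the 3 nearest profiles to *Cgas* and *Tmem173*. Some genes under this rule are not reported here. *Atrip*, *Gm28035* and the remaining *Lrrc8* genes were named for their overlap or kinship with members.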

Additional observations from a re-analysis of the deposited data

How the results depend on the processing

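All 7 members called kept their direction and side of the threshold under scaling by RLE or by the upper quartile, without the filter or with a minimum of 10 counts in each library, under DESeq2 and limma-voom, with the replicate block and each library left out in turn, and *Enpp1* and *Slc19a1* stayed uncalled. Between these settings the counts of pathway genes called ran from 15 to 23 higher and from 12 to 22 lower. No setting scaled by library totals alone. The replicate block raised the genes called over all genes tested from 2470 to 3343 higher and from 2604 to 3615 lower. It changed the calls of *Zcchc3*, *Pecam1*, *Chuk*, *Ikbkb*, *Ikbkg* and 3 macrophage markers but of no member or other gene named. With a library left out, the log2 fold change of *Samhd1* ran from 0.92 to 1.20, that of *Lrrc8c* from 0.51 to 0.74 and that of *Slc19a1* from 0.06 to 0.30. The difference in the *Tmem173*/*Cgas* ratio was -0.05 and ran from -0.13 to 0.03, changing sign without WT replicate 2. The other 3 ratios kept their direction with each library left out and with a pseudocount of 0. Differences within replicate numbers, a replicate block added after seeing the data, had the same means (-0.05, 0.46, 1.13 and 0.64). The length of the longest transcript put *Lrrc8a* last in both genotypes, and exon bases of its own, a length chosen after seeing the data, put it above *Lrrc8c* in WT (6.68 and 5.28 RPKM). Depth limits *Gjb2*, *Clec9a* and *Lrrc8e*, and the 0 of *Trex1* gives no limit on its RNA.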
